A study of Bos taurus with 3 samples.

Results

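Ribosomal RNA (rRNA) was described in small RNA libraries of bovine milk-derived extracellular vesicles (BM-EVs), the membrane-enclosed particles that cells release into milk. The members were chosen by name. They were those Rfam sequences whose family name contains large subunit, small subunit or 5.8S ribosomal RNA. For 113 listed Rfam sequences the family name was not at hand, so further rRNA sequences may be among them. They numbered 214 of 1631 listed Rfam sequences, with 75 large subunit, 129 small subunit and 10 5.8S sequences. The vesicles were salted out from whey of pasteurized skimmed milk with ammonium sulfate. The labels give normal, untreated milk for all 3 libraries, which form 1 group without a control, so the report gives levels and how far they varied. Milk of different expiration dates served the study as biological replicates. Which milk gave each library is not stated in the sources used here, nor are the age and breed of the animals, so biological and technical spread between the libraries cannot be told apart. Counts are of UMIs (unique molecular indexes), short tags by which the PCR copies of 1 molecule are recognized and counted once.

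The large subunit rRNA forms the catalytic core of the ribosome that joins amino acids, and the small subunit rRNA reads the messenger RNA. The 5.8S rRNA pairs with the large subunit rRNA. All of them are cut from a shared precursor that RNA polymerase I makes from tandem repeats, whereas 5S rRNA is made from separate genes by RNA polymerase III. In a small RNA library the long rRNAs are read as short pieces, so 1 UMI stands for 1 piece and not for 1 ribosome. Rfam groups RNAs by family, and a family named after archaea, bacteria or microsporidia can match a conserved stretch of cattle rRNA. Such a name therefore does not identify the organism of a molecule.

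The Rfam counts summed to 1013392, 1937450 and 863833 UMIs in libraries 1, 2 and 3, and the lowest listed count was 11, so an unlisted sequence had at most 10 UMIs. The Spearman correlation of the members' UMIs between libraries was 0.98 for 1 with 2 (n = 210 sequences), 0.98 for 1 with 3 (n = 208) and 0.97 for 2 with 3 (n = 208). These are descriptions across sequences that share libraries and may share UMIs, with no test. Counting noise would give a chi-square of about 1 for each degree of freedom, and the members' counts gave 138 for 1 with 2, 67.4 for 1 with 3 and 135 for 2 with 3. Each library was therefore counted on its own.

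The rRNA sequences held 33.5% ± 11.1 (SD, n = 3 libraries) of the Rfam UMIs, and this share differed widely between the libraries. Sequences of near-equal counts may share UMIs, and with these counted once the mean was 30.7%. All rRNA sequences together had 341550, 433241 and 384153 UMIs in libraries 1, 2 and 3, which was 33.7%, 22.4% and 44.5% of the Rfam UMIs. Wilson 95% confidence intervals, which cover counting error only, ran from 33.6 to 33.8% in library 1, from 22.3 to 22.4% in library 2 and from 44.4 to 44.6% in library 3. Library 3 was the highest and library 2 the lowest, and no intervals overlapped. The tRNA sequences, which carry amino acids to the ribosome, had the opposite order, with 64.2%, 74.3% and 52.0% of the Rfam UMIs. Since these are shares of 1 total, a higher share of tRNA and a lower share of rRNA cannot be told apart. The study reports a far lower rRNA share of its small RNA biotype counts, among which it also counted miRNA. With miRNA UMIs added to the denominator, the share here was 31.3%, 18.7% and 39.8% in libraries 1, 2 and 3. The sources used here do not give how the study formed its share, so the measures may not be alike. The reason for the difference was not tested.

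The large subunit held slightly more UMIs than the small subunit, and both held far more than 5.8S. The large subunit had 166837, 234160 and 211972 UMIs in libraries 1, 2 and 3, which was 52.7% ± 3.38 of the rRNA UMIs. The small subunit had 162402, 171455 and 160767 UMIs, which was 43.0% ± 4.11. The ratio of large to small subunit UMIs was 1.03, 1.37 and 1.32, so the large subunit was the higher class in every library, although barely so in library 1. This order rested on the families named after other kingdoms in library 1, for with the families named eukaryotic alone the ratio was 0.88, 1.16 and 1.16, and the small subunit was higher there. Its share exceeded that of the small subunit by 9.70 ± 7.30 percentage points (exact two-sided sign permutation test, p = 0.25, the smallest p that 3 libraries allow). The 5.8S sequences had 12311, 27626 and 11414 UMIs, or 3.60%, 6.38% and 2.97% of the rRNA UMIs. They followed another course than the subunits. As a share of all Rfam UMIs, 5.8S lay at 1.21%, 1.43% and 1.32%, with the highest value in library 2. The large subunit lay at 16.5%, 12.1% and 24.5% and the small subunit at 16.0%, 8.85% and 18.6%, both lowest in library 2.

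**Figure D1:**
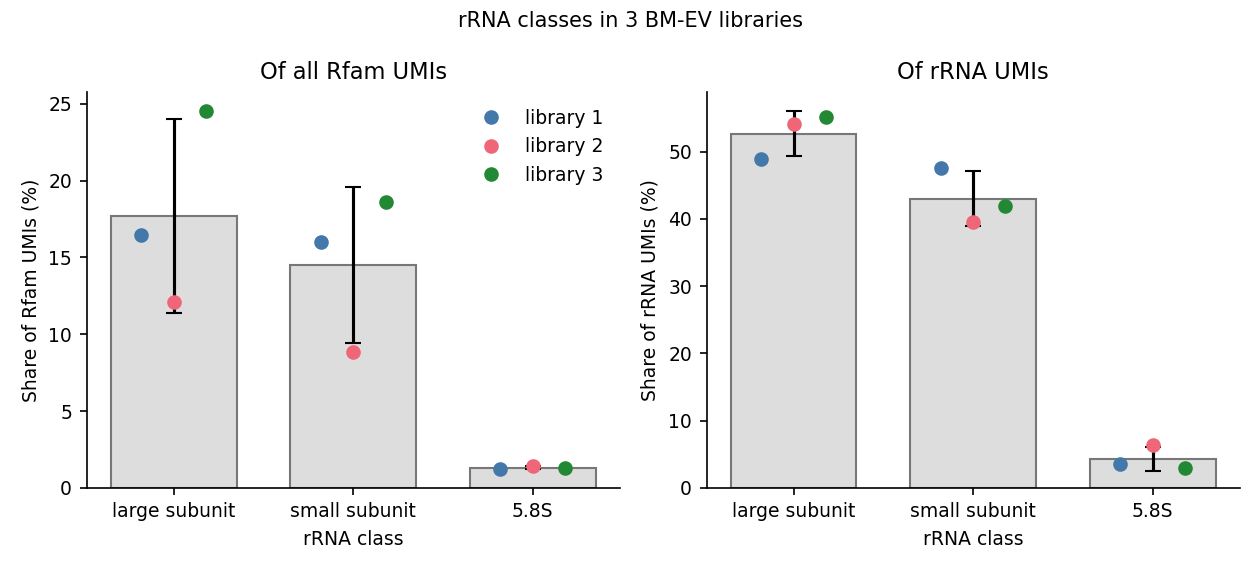
Share of all Rfam UMIs (left, %) and of rRNA UMIs (right, %) for the rRNA classes. Points are the 3 libraries, bars their mean and error bars the SD; library 2 is the lowest of the libraries for both subunits on the left, at 12.1% and 8.85%, and the highest for 5.8S, at 1.43%.

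The members fell into 8 Rfam families, and those named eukaryotic held most of the UMIs. The eukaryotic large subunit family, with 65 sequences, held 37.9% ± 2.75 of the rRNA UMIs, and the eukaryotic small subunit family, with 104 sequences, held 35.9% ± 3.21. The 35 sequences of the other families held 22.0%, 21.1% and 22.5% in libraries 1, 2 and 3. This share varied little, with a mean of 21.9% ± 0.702. Among them, the archaeal large subunit family held 12.1% ± 0.768 with 4 sequences, the microsporidial small subunit family 6.21% ± 1.02 with 19, and the bacterial large subunit family 2.73% ± 0.578 with 6. The bacterial small subunit family held 0.806% ± 0.0275 with 5 sequences. The archaeal small subunit family had a single sequence, chr25:32411238-32411467, with 130, 129 and 112 UMIs. Of the 35 sequences, 24 lay within a dense array on chromosome 25 among sequences named eukaryotic, and neighbours along that array changed family 33 times. The sources used here do not give the build of these coordinates.

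Few sequences led the rRNA. In libraries 1, 2 and 3, 20, 17 and 17 sequences made up 50% of the rRNA UMIs, and 91, 85 and 88 made up 90%. The 10 sequences with the highest mean share held 34.3%, 37.1% and 36.4% of the rRNA UMIs, and 6 sequences were among the 10 highest of every library. At the other end, 36, 39 and 34 sequences with under 100 UMIs held 0.383%, 0.409% and 0.377%. The large subunit was the more concentrated class, with 6, 6 and 7 sequences for 50% of its UMIs, against 16, 14 and 15 for the small subunit.

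**Figure D2:**
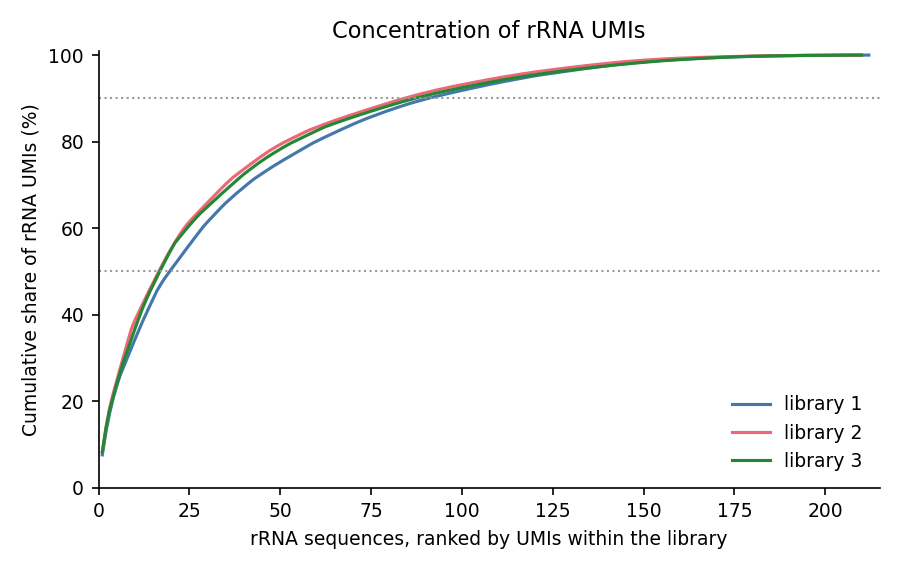
Cumulative share of the rRNA UMIs (%) against the rank of the sequence within its library, with dotted lines at 50% and 90%. The curves of the 3 libraries run close together and cross 50% at 20, 17 and 17 sequences.

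The highest sequence in every library was a large subunit sequence on chromosome 2, named archaeal. Chr2:66269475-66272552 was also the longest member, with 3078 bases, and had 26002, 35651 and 31769 UMIs in libraries 1, 2 and 3, which was 8.04% ± 0.368 of the rRNA UMIs. Its neighbour chr2:66268226-66268404, only 179 bases long and named bacterial, had 8713, 14501 and 8544 UMIs and held 99.0%, 99.2% and 98.8% of the UMIs of the bacterial large subunit family. The next bacterial large subunit sequence, chr2:2029133-2030463, had 26, 30 and 40 UMIs. The UMIs of the bacterial large subunit family thus rested almost wholly on a single sequence beside the highest archaeal one.

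On chromosome X, chrX:62081025-62082268 was the highest eukaryotic large subunit sequence, with 18082, 19714 and 20998 UMIs. ChrX:62079515-62080095, with 12006, 13223 and 12295 UMIs, lay beside it and overlapped by 40 bases a sequence named archaeal, chrX:62080056-62080535, with 3995, 6299 and 4015 UMIs, named here after its values were seen. These were the only neighbouring members that overlapped. Together, the 4 members of this locus held 10.8% ± 0.316 of the rRNA UMIs, close to the 10.7% ± 0.739 of the chromosome 2 pair. A locus is here a run of members with at most 10 kb to the next one, and 80 loci were found, 65 of them with 1 member.

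The third leading locus lay on chromosome 18, with 7 large subunit sequences over 20280 bases and 8.72% ± 1.67 of the rRNA UMIs. Its highest sequence, chr18:58241932-58242715, had 14665, 24600 and 15943 UMIs. These 3 loci with 13 sequences held 58.0%, 60.1% and 54.2% of the large subunit UMIs in libraries 1, 2 and 3. The other large subunit UMIs were spread over the rest of the 56 large subunit loci on 25 chromosomes, and no large subunit sequence was on chromosome 25. No locus held sequences of both subunits.

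**Figure D3:**
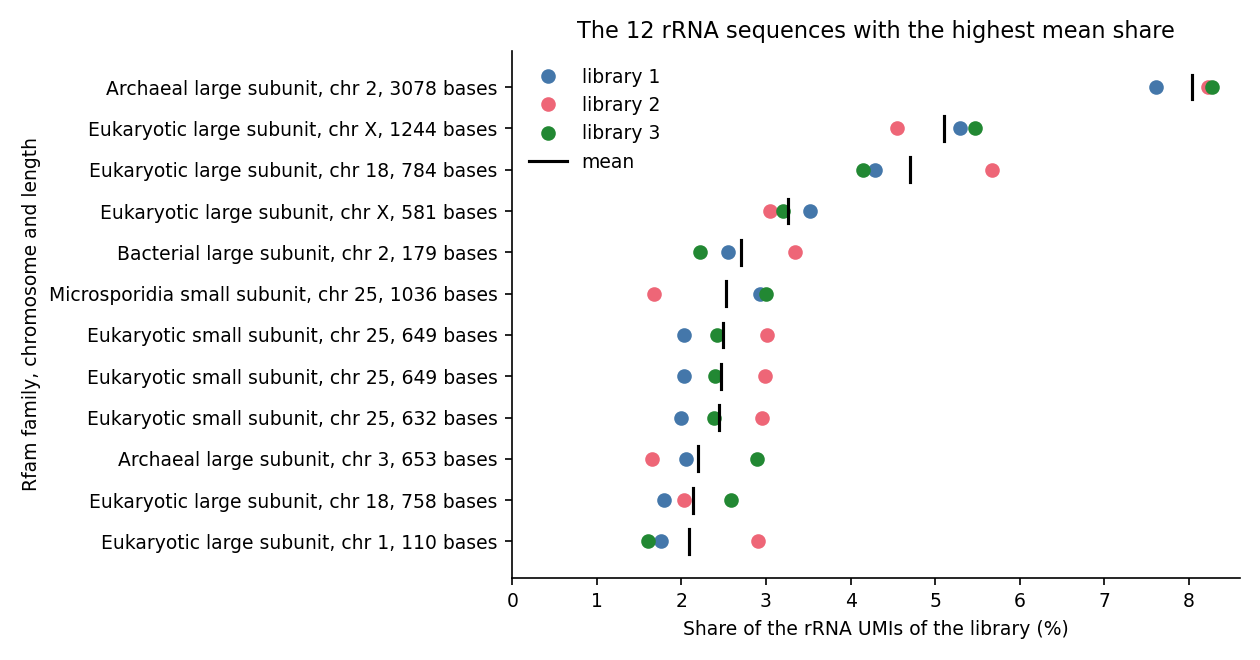
Share of the rRNA UMIs of each library (%) for the 12 sequences with the highest mean share, labelled by Rfam family, chromosome and length. Points are libraries and black ticks the means; the chromosome 2 sequence of 3078 bases leads in all libraries with a mean of 8.04%, and the order of the others changes between libraries.

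Short sequences could hold as many UMIs as long ones. Per kilobase of sequence, the eukaryotic large subunit sequence chr1:5378229-5378338, with 110 bases, was the highest of all members at 75127 UMIs per kb in the mean of the libraries. It had 6011, 12596 and 6185 UMIs. The bacterial large subunit sequence of 179 bases on chromosome 2 followed with 59140 UMIs per kb, against 10117 for the sequence of 3078 bases next to it. Sequences of a single locus could thus differ widely in UMIs per kb. The medians were 1505 UMIs per kb for the large subunit sequences and 1643 for the small subunit sequences of the chromosome 25 array. For the 24 small subunit sequences elsewhere the median was 532. Across members, the Spearman correlation between length and mean UMIs was 0.44 for the large subunit (n = 75) and 0.68 for the small subunit (n = 129), given as a description of sequences that may share UMIs.

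A single stretch of chromosome 25 held 105 of the 129 small subunit sequences and 8 of the 10 5.8S sequences. This array of 113 members, from chr25:32368861 to 32472058, spanned 103198 bases, and all 113 were named in the plus order. It held 44.9%, 41.1% and 39.2% of the rRNA UMIs in libraries 1, 2 and 3, or 41.7% ± 2.87. It held 86.8%, 87.8% and 86.7% of the small subunit UMIs and at least 99.7% of the 5.8S UMIs, with 99.7%, 99.9% and 99.8%. Small subunit sequences outside it numbered 24, with medians of 228, 216.5 and 332 UMIs against 642, 722 and 663.5 within it. The highest of them, of 901 bases on an unplaced contig and named here after its values were seen, had 4849, 3675 and 5641 UMIs, and the array and the other sequences overlapped widely in their counts.

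Along the array the UMIs were spread unevenly. Counted from its first base, the second 10 kb held 11.4%, 17.1% and 15.0% of the array's UMIs, and the ninth held 26.8%, 20.1% and 26.3%. From 20 to 60 kb, each 10 kb held between 5.31 and 7.92%. Near the start, 3 eukaryotic small subunit sequences of almost equal length and counts stood out. Chr25:32377238-32377886 had 6944, 13031 and 9315 UMIs, chr25:32380943-32381591 had 6920, 12967 and 9218, and chr25:32382980-32383611 had 6831, 12799 and 9160. Towards the end, the microsporidial sequence chr25:32458371-32459406 had 10001, 7246 and 11505 UMIs, the highest of its class in libraries 1 and 3, and chr25:32455405-32456145, also named microsporidial, had 6309, 7062 and 5989. In counts, the former was lowest in library 2 and the 3 near the start were highest there. As shares of the Rfam UMIs all 4 were lowest in library 2, where the former had 0.32 times and each of the 3 had 0.76 times the mean share of libraries 1 and 3.

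**Figure D4:**
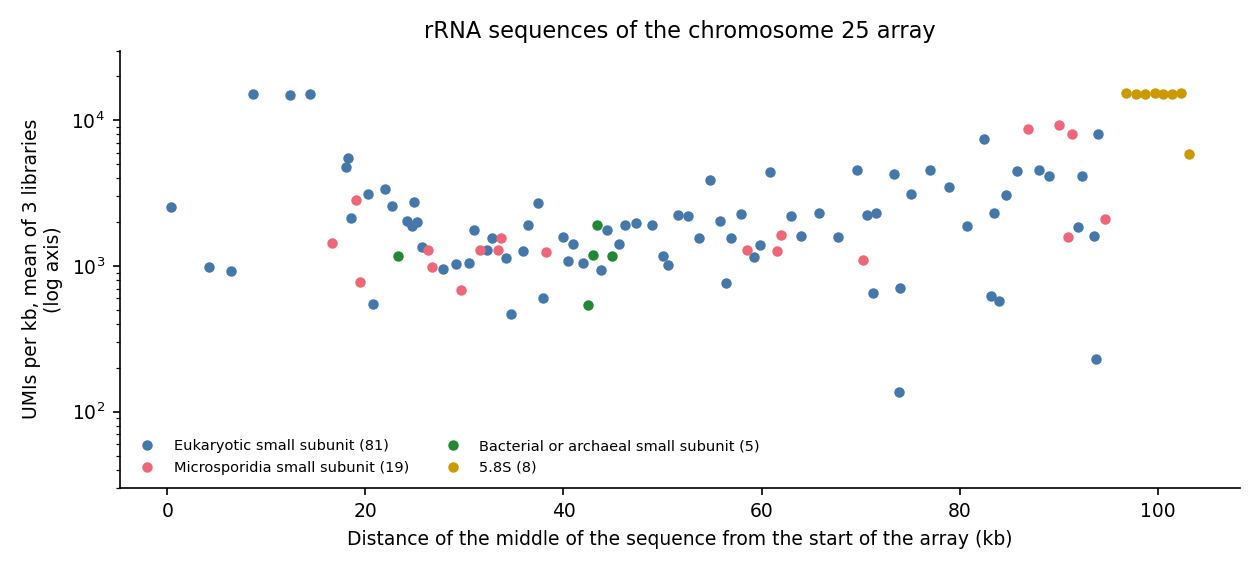
UMIs per kb in the mean of 3 libraries (log axis) for the 113 sequences of the chromosome 25 array, against the distance of the middle of the sequence from the start of the array (kb). Colours give the Rfam family; the 5.8S sequences lie side by side after the small subunit sequences, and 7 of the 8 lie at nearly the same level.

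The 5.8S sequences closed the array. They began 2008 bases after the last small subunit sequence, and their starts followed each other at 804 to 967 bases. Of these, 7 had the same length of 153 bases, and their counts were nearly the same. They ranged from 1644 to 1718 UMIs in library 1, from 3732 to 3845 in library 2 and from 1521 to 1580 in library 3. The highest mean was that of chr25:32465610-32465762, with 1681, 3845 and 1564 UMIs, and the lowest that of chr25:32470244-32470396, with 1644, 3732 and 1526. The last of the array, chr25:32471925-32472058, was 134 bases long and had 586, 1221 and 565 UMIs. The 2 other 5.8S sequences were near the listing minimum. Chr25:33028970-33029114 had 12, 23 and 27 UMIs, and chrX:55905197-55905343 had 22 and 11 UMIs in libraries 1 and 2 and none listed in library 3.

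Sequences of the same family and length often had similar counts. The ratio of variance to mean among the 7 5.8S sequences was 0.39, 0.39 and 0.35 in libraries 1, 2 and 3. Among 6 microsporidial small subunit sequences of 293 bases it was 0.71, 1.13 and 1.07, with 384 to 434 UMIs in library 1. Independent counts from 1 mean would give about 1. The 9 eukaryotic small subunit sequences of 532 bases ranged from 1073 to 1383 UMIs in library 1, with a ratio of 8.66. The 7 of 697 bases ranged from 2560 to 3911 there, with a ratio of 64.1. The widest range was that of 4 eukaryotic small subunit sequences of 164 bases on chromosomes 3, 16 and 25, from 34 to 1739 UMIs in library 1, with a ratio of 816. Equal length thus went with near-equal counts in some groups and not in others. In all, 8 groups with 19 members had counts within 2% of each other in every library, and 3 of these groups joined different loci. This rule was applied to the members only, so no share over all Rfam sequences is at hand. It put the 7 5.8S sequences in separate groups or in none, so the count may be too low. The large subunit sequence chr7:31761868-31762330 had 2997, 7453 and 6564 UMIs, and chr18:58222884-58223346 had 3017, 7569 and 6626. The third of this group, chr18:58224254-58224715, had 3025, 7576 and 6590. Chr6:92538603-92539088, with 2561, 6793 and 3903 UMIs, lay within 2% of chr18:50716170-50716655, with 2552, 6818 and 3892. The small subunit pair chr2:66606835-66607531, with 3812, 2688 and 2901 UMIs, and chr25:32454301-32454997, with 3819, 2715 and 2872, was of the same kind. The sources used here do not give how a UMI that matched several sequences was assigned, so the UMIs of such sequences may be shared and their separate counts are uncertain. Totals of loci, classes and all rRNA that sum such sequences may then count a molecule more than once.

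Most rRNA sequences took their lowest share of the Rfam UMIs in library 2. Of the 208 members listed in every library, 184 were lowest there (88.5%), against 37.4% of all 998 Rfam sequences listed in every library. This held for 122 of 126 small subunit and 62 of 73 large subunit sequences and for 0 of 9 5.8S sequences. The median ratio of the share in library 2 to the mean share in libraries 1 and 3 was 0.51 over the members, 1.00 over all Rfam sequences and 1.14 over 623 tRNA sequences. At least 2-fold lower in library 2 were 102 members (49.0%), against 19.8% of all Rfam sequences. All Rfam sequences here include the members. Among the 790 others, 23.9% were lowest in library 2 and 12.2% were at least 2-fold lower there. The highest share was in library 3 for 137 members, against 40.0% of all Rfam sequences. A share in library 2 above the mean of libraries 1 and 3 was found for 13 members, against 50.2% of all Rfam sequences. These 13 were 8 5.8S, 3 small subunit and 2 large subunit sequences. Several of the 5.8S sequences had near-equal counts and may share UMIs, so they may not be separate cases. The 68 5S sequences had a median ratio of 0.42, and 36 of them were lowest in library 2. Libraries are replicates here and were not tested against each other.

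Against library 1 alone, 76 members had an at least 2-fold lower share in library 2, against 13.8% of all Rfam sequences, and against library 3 alone 116 members did, against 22.4%, a comparison chosen after seeing the data. Relative to the rRNA UMIs, which the members themselves make up, their ratios centre near 1 by construction. On this scale 109 of 208 members were lowest in library 2, against 17.4% of all Rfam sequences, and 11 were at least 2-fold lower, against 4.01%. The ratio of library 2 to the other libraries then had a median of 0.88 and ranged from 0.32 to 3.29, and the median over all Rfam sequences moved from 1.00 to 1.72. All 9 5.8S sequences lay above 1 on this scale, as did 26 of 73 large subunit and 34 of 126 small subunit sequences. The share of all Rfam sequences above 1 was not counted. Their median of 1.72 was itself above 1, so such a ratio is not particular to 5.8S.

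Individual sequences differed in this balance far more than the classes. Among the 169 members with at least 100 UMIs in every library, the highest ratio of library 2 to the other libraries, as shares of the Rfam UMIs, was 1.25. It belonged to a eukaryotic small subunit sequence of 172 bases on an unplaced contig, with 1869, 4972 and 1968 UMIs. The next 7 were the 5.8S sequences of 153 bases, at 1.10 to 1.14, which had near-equal counts and may share UMIs. The lowest was the small subunit sequence chr11:99370701-99371002, with 228, 157 and 446 UMIs and a ratio of 0.22. It was followed by 4 others. The large subunit sequence chr23:7199952-7200031 had 249, 109 and 213 UMIs, and chr19:31477076-31477320 had 147, 126 and 338. The small subunit sequence chr25:32389418-32389854 had 220, 157 and 342 UMIs, and the large subunit sequence chr20:66997362-66997513 had 170, 151 and 356. These low ones all had fewer UMIs in library 2 than in library 1, although library 2 had 1.91 times as many Rfam UMIs in all. As they were chosen for their low ratios, this follows in part from the choice. In counts, 88 of the 208 members were lower in library 2 than in library 1, against 15.0% of all Rfam sequences, and 21 had a ratio above 1.91, against 52.2%.

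**Figure D5:**
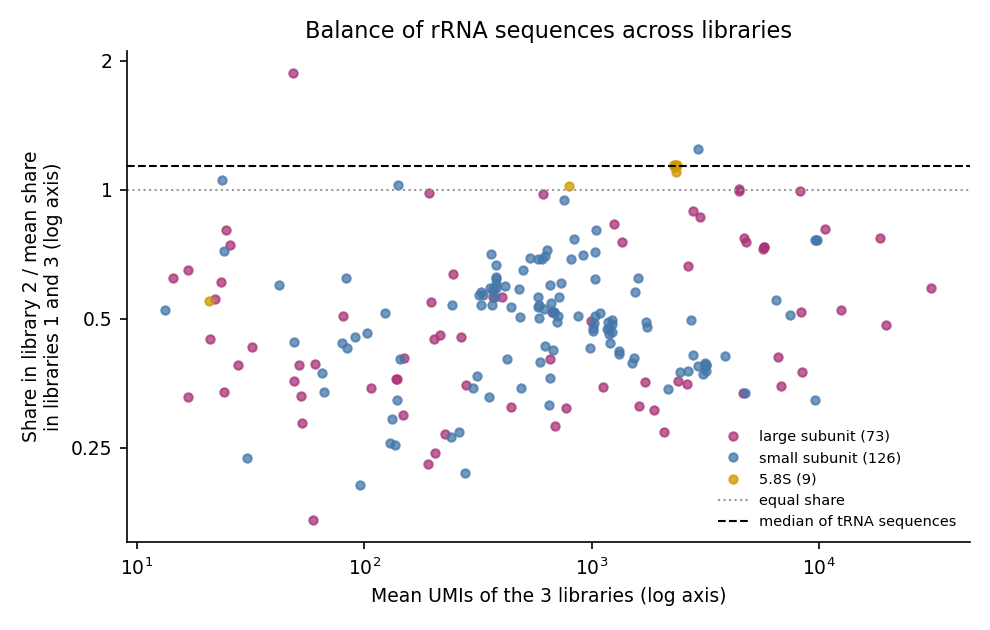
Ratio of the share of Rfam UMIs in library 2 to the mean share in libraries 1 and 3 (log axis) against the mean UMIs of the 3 libraries (log axis) for the 208 rRNA sequences listed in every library. The dotted line is an equal share and the dashed line the median of the tRNA sequences, 1.14; most points lie below 1, with a median of 0.51, while 8 of 9 5.8S sequences lie above it.

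Neighbouring sequences could also part. On chromosome 6, chr6:92537923-92538585 had 6085, 5488 and 8855 UMIs and a ratio of 0.35, while its neighbour chr6:92538603-92539088 had a ratio of 1.00. On chromosome 18, chr18:50716677-50716836 had 3906, 3625 and 6322 UMIs and a ratio of 0.33, beside chr18:50716170-50716655 with 1.00. Both pairs are of the eukaryotic large subunit family. Their members at 1.00 had counts within 2% of each other in every library and may share UMIs. The pairs may therefore not be separate cases. Of the 214 members, 6 were not listed in every library, and the highest count among them was 22 UMIs.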

How the data were processed

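Small RNA of BM-EVs was sequenced in 3 libraries of 1 group, numbered by the replicate in the labels. The authors deposited unnormalized UMI counts, 1 per sequence and library. Before counting, they cut adapters and poor reads and matched the rest first to miRBase and then to Rfam. Tools named in the submitters' processing notes are Bowtie 1.2.2, cutadapt 2.7 and FastQC. The build, the use of strand and the handling of multiple matches are not given in the sources used here. Rfam family names were joined on the sequence name from the study's table, of which 1605 rows were at hand and 8250 were not used here. Rfam sequences whose family name was not at hand numbered 23, 32 and 66 in libraries 1, 2 and 3. Their 506, 917 and 1141 UMIs stayed in the totals.

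Position and length were read from the sequence name. Shares were computed within each library, with an unlisted sequence as 0, and are given as mean ± SD. The balance of a sequence is its share in library 2 over the mean of libraries 1 and 3. Its calculation was run on simulated independent counts with a planted drop. This checks the formula only, since the counts here vary more than counting noise and may share UMIs. TMM factors of edgeR 4.0.16 and size factors of DESeq2 1.42.0 (R 4.3.3) were other scalings. Other steps ran in Python 3.11.15 with matplotlib 3.10.9, scipy 1.17.1, numpy 2.4.6 and pandas 2.3.3. Named sequences were the 10 highest, the 2 highest of each family, all 5.8S sequences, the highest of each locus with several members, near-equal groups on different loci, and the 5 highest and 5 lowest balances among members with at least 100 UMIs in every library. The members, lists and alternatives were chosen with earlier results of these data known. Sequence letters are not shown, as no genome of the files' build was used here, and miRNA counts (77225, 373239 and 102058 UMIs) served only as part of another denominator.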

Additional observations from a re-analysis of the deposited data

How the results depend on the processing

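No paired analysis was possible because there is only 1 group of libraries. With near-equal members counted once, rRNA held 30.7% of the Rfam UMIs, and 5.8S held 2.95% of the rRNA UMIs. In this setting the chromosome 25 array held 37.9% of the rRNA UMIs and the 10 highest sequences 40.4%. The families named after archaea, bacteria or microsporidia held 25.01%. When the UMIs per kilobase of each member were summed by class, the small subunit held 34.4% of the sum and 5.8S 11.6%. Such a sum grows with the number of listed members and weighs short members heavily. With eukaryotic families and 5.8S alone, the large subunit held 48.5%, and its ratio to the small subunit was 1.06 in the mean and 0.88, 1.16 and 1.16 in libraries 1, 2 and 3, so the direction turned in library 1. With a minimum of 30 UMIs, near-equal members counted once, unlisted members at 10 UMIs or these summed UMIs per kilobase, the ratio was above 1 in all 3 libraries. Scaled by rRNA UMIs, 109 members were lowest in library 2 and 11 were at least 2-fold lower, against 17.4% and 4.01% of all Rfam sequences. Leaving out 1 library moved the rRNA share of Rfam UMIs between 28.0% and 39.1% and the ratio of large to small subunit UMIs between 1.17 and 1.34. With all miRNA and Rfam UMIs as denominator, rRNA held 29.9%. Leaving out 1 of 3 libraries cannot move a mean by 1 SD, so such values say little on stability. Counts near 11 UMIs carry a large counting error.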
